A study of Mus musculus with 8 samples.

Results

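The genes described here encode the proteins of the cytosolic ribosome of the mouse. They were taken by symbol: Rpl or Rps followed by a number, together with Rplp0, Rplp1, Rplp2 and Rpsa, with at least 1 FPKM in 2 or more libraries. FPKM is the number of fragments per kilobase of transcript, scaled to the mapped fragments of the library. Of 83 genes whose symbol met the rule, 79 passed this filter, 47 of the large and 32 of the small subunit, among 11931 genes that passed it out of 23284 symbols in all. Just inside the filter lay Rpl23a, with 2.02 and 1.23 FPKM in a pair of control libraries and a mean of 0.735. Just outside lay Rpl11, whose highest value was 0.774 FPKM, with Rpl39l, Rpl3l and Rpl10l, the last of which was listed at 0 in every library.

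The libraries came from LSK cells, the lineage-negative, Sca-1 positive, c-Kit positive fraction of bone marrow that holds blood stem cells and multipotent progenitors. All mice were C57BL/6 males of 12 to 13 weeks. After fasting for more than 14 hours they received morning intravenous injections for 7 days, ate freely in the daytime and were killed on day 8. The glucose group (2 libraries) received glucose at 2 g/kg, the glucose and lipid group (2 libraries) received the same glucose with a 20% lipid emulsion at 6 mL/kg, and the controls (4 libraries, lettered H, I, J and K) received phosphate-buffered saline (PBS). About 10000 sorted cells went into each extraction. No group carried a transgene or a deletion, and no library is labelled with the drug dichloroacetate that the protocols mention. The study names 2 control libraries for each treatment. By their letters H and I belong to the glucose and lipid group, whose replicates 1 and 2 carry the same letters, and J and K are left for glucose. The labels call the libraries biological replicates and do not say whether a library is 1 mouse or a pool. With 2 libraries a group, the p-values measure only the spread between these libraries. In bulk samples, fewer cells of a type and less RNA per cell cannot be told apart.

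A cytosolic ribosome joins a small subunit, which reads the mRNA, to a large subunit, which forms the peptide bond, and its proteins are needed in fixed proportions. Messengers for ribosomal proteins typically begin with a cytosine followed by a run of pyrimidines, the 5′ terminal oligopyrimidine (TOP) motif, through which the kinase complex mTORC1 and the protein Larp1 adjust their translation to nutrients. Blood stem cells are known for a low rate of protein synthesis, and inherited loss of a copy of some ribosomal protein genes causes Diamond-Blackfan anaemia. RNA levels, as measured here, do not show translation.

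LSK markers were present in all libraries: 12 of 12 were found, with a summed level of 1821 to 2294 FPKM. One library stood apart. Glucose and lipid replicate 1 held 65935 FPKM over 11 neutrophil markers, against 246 to 609 in the other 7, with S100a8 at 35390. Its 9 macrophage and monocyte markers summed to 705 FPKM (49.4 to 91.1 elsewhere), its 9 B and plasma cell markers to 196 (41.3 to 72.6 elsewhere) and its 9 erythroid markers to 3120 (1154 to 2334 elsewhere). No gene of these lists was at 0 in all libraries. The 10 T and NK cell markers summed to 372 to 512 FPKM, most of it from Nkg7 (325.5 to 466.5). Lck, Nkg7 and Gzmb were not highest in glucose and lipid replicate 1, but the other T and NK cell markers were. Cd3e was at 3.775 FPKM in that library (at most 0.606 elsewhere), Cd3g at 4.74 (at most 0.894) and Cd3d at 3.72 (at most 0.632). The main results that rest on this library are given with and without it, and the part of the other cells in them was not tested. The files give no fragment totals. From the value of 1 fragment in low genes, the depth of the libraries relative to glucose replicate 1 ranged from 0.786 to 1.14.

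The annotated start sites of these genes carried a TOP-like tract in a larger share than those of other genes. RefSeq promoters (assembly GRCm38.p6, 250 bases before to 50 after each start, 300 bases in all) matched 58 of the 79 genes. At the annotated start, 13 of the 58 (22.4%) had a C followed by 4 or more C or T, against 3.01% of all 27025 genes with a promoter. A gene was counted if any of its promoters had the feature. Members with such a tract spanned the range of levels, from Rpl28 at 1.33 FPKM to Rpl14 at 345. The windows of 6 of them, whose values are described further on, run from 30 bases before the annotated start to 25 bases from it. They are shown because a TOP tract is the sequence through which the cell recognises such messengers. Start sites were not measured here. An annotated start that is a few bases off would hide or create a tract. Capitals mark the tract from the annotated start, 5 to 13 bases long over the 13 genes.
Rpl15 (chr14:18270962-18271016, minus strand): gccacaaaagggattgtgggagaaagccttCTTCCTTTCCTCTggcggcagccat
Rpl35 (chr2:39005107-39005161, minus strand): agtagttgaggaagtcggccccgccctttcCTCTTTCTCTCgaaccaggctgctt
Rps10 (chr17:27635220-27635274, minus strand): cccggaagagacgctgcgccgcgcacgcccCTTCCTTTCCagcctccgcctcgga
Rps6 (chr4:86857343-86857397, minus strand): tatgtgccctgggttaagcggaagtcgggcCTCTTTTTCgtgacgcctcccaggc
Rpl38 (chr11:114668550-114668604, plus strand): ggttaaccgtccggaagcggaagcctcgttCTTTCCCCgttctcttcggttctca
Rps27 (chr3:90213624-90213678, minus strand): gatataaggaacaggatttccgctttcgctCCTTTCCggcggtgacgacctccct

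A further 3 short words were counted on both strands of the 300 bases, and matches of different words may overlap. CCGGAAG, the core bound by ETS factors such as GABPA, was in a promoter of 23 of the 58 members (39.7%) and of 9.93% of all genes with a promoter. AAGATGGC, the core of the YY1 site, was in 6 (10.3%) against 3.19%, and TATAAA, the TATA box, was in 7 (12.1%) against 15.7%. These are matches of letters, not binding sites.

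The 79 genes were listed over a range of about 3 orders of magnitude on this per-length scale. Among the highest means over 8 libraries were those of Rpl32 with 1500 FPKM, Rps14 with 1015 and Rpl41 with 998. The lowest were Rpl23a with 0.735, Rpl28 with 1.33, Rps12 with 2.00, Rpl24 with 2.06 and Rpl10a with 2.19. A group of 15 genes at 500 FPKM or more supplied 69.0% of the summed level, and the 19 genes under 10 FPKM supplied 0.459%. Both subunits were found in each class, with 7 large and 8 small subunit genes among the 15 and 12 large and 7 small among the 19.

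The listed level followed how much of the coding sequence a gene shares with other annotated genes, most of them processed pseudogenes. Ribosomal protein messengers have been copied into the genome many times, and a fragment that fits several copies cannot be placed on one of them. For each gene, every run of 50 coding bases in its GENCODE transcript (release vM21, GRCm38) was looked for in the transcripts of all other annotated genes. The median share of runs found elsewhere was 100% in the 19 genes under 10 FPKM (87.3% to 100%), 97.2% in the 24 genes from 10 to 100 FPKM, 84.1% in the 21 from 100 to 500 FPKM and 46.4% in the 15 at 500 FPKM or more (0% to 100%). Over the 79 genes, Pearson's r between the log2 mean level and this share was -0.65 and Spearman's rho was -0.76. Over all 83 genes whose symbol met the rule they were -0.33 and -0.59. Of the 4 genes that this adds, Rpl39l and Rpl3l shared 0%, Rpl10l 12.5% and Rpl11 100%. These are descriptions across genes, which are not independent replicates, and genes that share copies share the ambiguity. Of the 28 genes whose coding runs were all found elsewhere, the median level was 8.84 FPKM and 1 reached 100 FPKM; of the 12 that shared 50% or less, the median was 752 FPKM and the lowest was Rpl7l1 with 91.9. Over the whole transcript with its untranslated ends, the relation was weaker (r -0.48, rho -0.49). How the authors' alignment treated fragments with several matches is not given in the sources used here, and its part in the levels was not tested.

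The first 50 coding bases of 3 low and 2 high genes are shown as chosen examples. The stretches begin with the start codon, and the genes are placed by their GENCODE span on GRCm38.
Rpl23a, 0.735 FPKM (chr11:78180932-78183584, minus strand): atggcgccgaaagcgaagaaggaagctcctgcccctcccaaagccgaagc
Rps12, 2.00 FPKM (chr10:23785183-23787275, minus strand): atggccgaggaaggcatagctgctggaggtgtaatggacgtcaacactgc
Rps23, 8.51 FPKM (chr13:90922958-90924950, plus strand): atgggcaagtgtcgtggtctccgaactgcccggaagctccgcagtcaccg
Rps3, 733 FPKM (chr7:99477896-99483738, minus strand): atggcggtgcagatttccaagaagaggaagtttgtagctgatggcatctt
Rpl8, 933 FPKM (chr15:76904078-76906314, plus strand): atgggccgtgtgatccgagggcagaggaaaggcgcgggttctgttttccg

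The Rpl23a stretch was present letter for letter in 7 other annotated genes, that of Rps12 in 9 and that of Rps23 in 8, whereas those of Rps3 and Rpl8 were in 0. The first 50 bases alone did not separate low from high genes. Those of Rpl10a, at 2.19 FPKM, were in 0 other genes, and those of Rpl32 (1500 FPKM) and Rpl39 (826 FPKM) in 4 each. Rpl23a, a large subunit protein near the exit of the peptide tunnel, had each of its coding runs in at least 1 other annotated gene, and 29 genes, 28 of them annotated as pseudogenes, held 1 or more runs of its transcript. All coding runs of Rps12 were likewise found elsewhere, and 25 genes, 22 of them pseudogenes, held 1 or more runs of its transcript. Rps3, a small subunit protein at the mRNA entry, shared 8.09%, and Rpl8, a large subunit protein, 8.73%. Rpl41 and Rpl39 were exceptions. Rpl41 encodes a very short peptide, shared 100% of its coding runs and still stood at 998 FPKM. Rpl39, a lining of the peptide tunnel, shared 86.5% at 826 FPKM, but only 16.5% over its whole transcript.

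**Figure D1:**
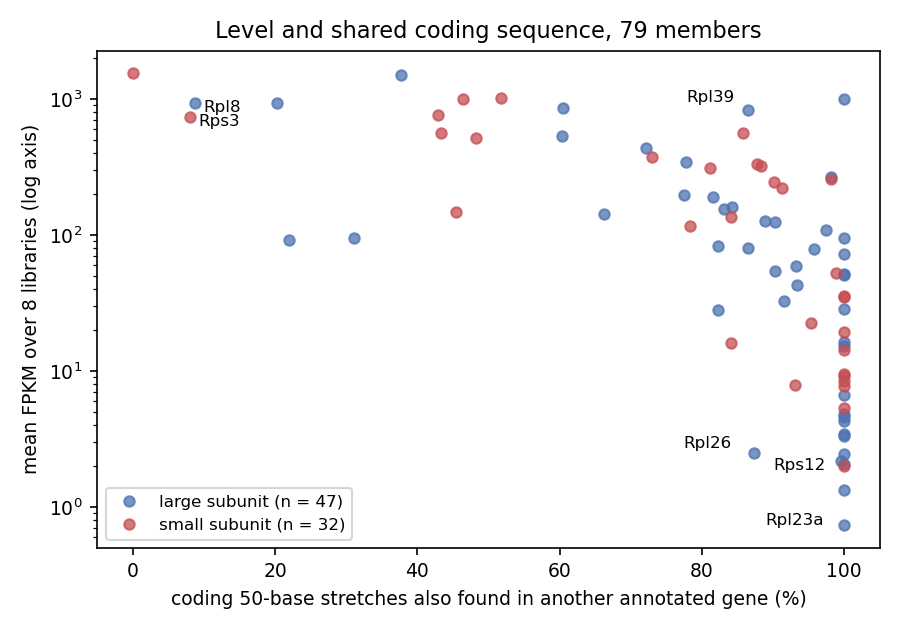
Each point is 1 of the 79 genes. The horizontal axis gives the percent of its coding 50-base runs found in another annotated gene, and the log-scaled vertical axis its mean FPKM over 8 libraries; blue marks the large subunit and red the small. The 12 genes at 50% or less all lie above 91 FPKM, and those at 100% reach from 0.735 to 998 FPKM.

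Low genes were also the noisier ones. The median coefficient of variation over the 8 libraries was 36.3% in the 19 genes under 10 FPKM, 14.8% from 10 to 100, 11.7% from 100 to 500 and 10.5% at 500 FPKM or more. Rpl26 was listed at 0 in 6 libraries, at 6.54 FPKM in PBS I and at 13.6 in PBS K. Rpl28 was listed at 0 in glucose replicate 1 and at 0.998 to 2.15 FPKM in the other 7. For Rpl26 and Rpl28 no log2 change is printed. The changes printed below for other genes under 10 FPKM carry this noise.

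The genes largely moved together from library to library, and the lowest and the highest median both lay in control libraries. Centred on each gene's mean over 8 libraries, the median member on the log2(FPKM + 1) scale stood at 0.07 and 0.05 in the glucose libraries, at -0.17 and 0.04 with glucose and lipid, and at -0.21, -0.07, 0.08 and 0.19 in PBS H, I, J and K. PBS K was the highest of the 8 libraries for 35 of the 79 genes and PBS H the lowest for 38. In PBS K 69 genes stood above their own mean, in PBS H 18, and in glucose and lipid replicate 1 only 9, the library with the neutrophil markers. Both subunits gave the same picture: the ratio of summed large to summed small subunit FPKM stayed between 1.0 and 1.09 in all 8 libraries.

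**Figure D2:**
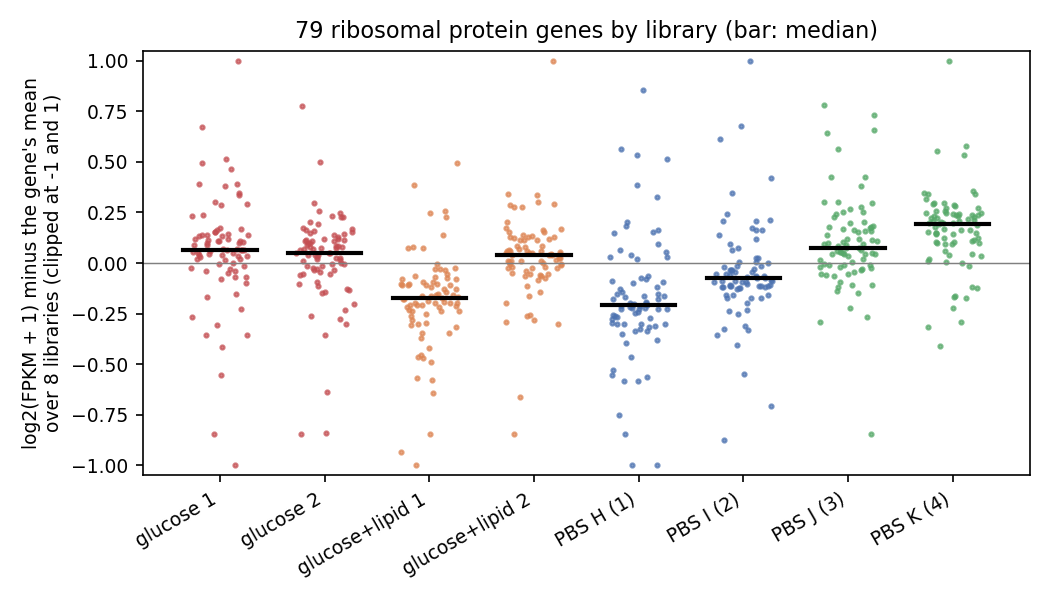
Each dot is 1 of the 79 genes in 1 library, as its log2(FPKM + 1) minus its mean over the 8 libraries (clipped at -1 and 1); the bar is the median. Medians run from -0.21 in PBS H to 0.19 in PBS K, and the glucose and lipid libraries lie apart from each other at -0.17 and 0.04.

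As a share of all FPKM outside short RNA genes, the 79 genes took 4.04% and 3.96% in the glucose libraries, 2.90% and 3.94% with glucose and lipid, and 3.45%, 3.73%, 3.71% and 4.16% in PBS H, I, J and K. The means were 4.0% ± 0.059 (SD, n = 2) with glucose, 3.42% ± 0.735 (SD, n = 2) with glucose and lipid and 3.76% ± 0.295 (SD, n = 4) with PBS. The 4 treated and 4 PBS libraries overlapped, with a difference of -0.05 percentage points. That difference was 0.22 points without glucose and lipid replicate 1. In that library the 79 genes summed to 17187 FPKM, the lowest sum but that of PBS H (16869). Its neutrophil markers are in the same total, and their part in the low share was not tested.

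No ribosomal protein gene passed the test in any of 5 comparisons by limma at a Benjamini-Hochberg adjusted p under 0.05 over all 11931 genes. With glucose against PBS J and K, 0 of 79 were called (0.101% of all genes were). At an unadjusted p under 0.05 there were 6 (7.59%), against 14.9% of all genes: 1 was higher (6.41% of all genes) and 5 were lower (8.44%). The median member was -0.05 on the log2 scale and the median of all genes 0.00, with 55 of the 79 members below 0. Without PBS K, 40 members were above 0 instead of 24. The groups did not overlap for 4 members with glucose higher (22.3% of all genes) and 24 with glucose lower (24.8%), so the members' shares were 5.06% and 30.4%.

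With glucose and lipid against PBS H and I, 0 of 79 were called (0.0754% of all genes). At an unadjusted p under 0.05 there were 9 (11.4%, against 11.8% of all genes), 3 of them higher (5.87% of all genes) and 6 lower (5.93%). The median member was 0.09 against 0.01 for all genes, with 57 members above 0. Without replicate 1, the library with neutrophil markers, the member median was 0.17, and without replicate 2 it was -0.03, with 31 members above 0. The groups did not overlap for 14 members with glucose and lipid higher (17.7%, against 22.2% of all genes) and 10 with it lower (12.7%, against 21.8%).

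The difference between both effects, each taken against its own controls, had 0 members called (0.0168% of all genes). It had 7 at an unadjusted p under 0.05 (8.86%, against 12.2% of all genes), 5 of them above 0 (6.03% of all genes) and 2 below (6.18%). The median member was 0.17 higher with glucose and lipid than with glucose, against 0.03 for all genes. Without glucose and lipid replicate 1 it was 0.30, and without replicate 2 it was 0.05.

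Between the control pairs, PBS H and I against J and K, 0 members were called (0.0503% of all genes; lowest adjusted p 0.10, Rpl38), but 31 of the 79 at an unadjusted p under 0.05 (39.2%, against 17.2% of all genes). Of these, 29 were lower in H and I (9.72% of all genes) and 2 were higher (7.53%). The median member was -0.27 against 0.00 for all genes, with 69 of 79 below 0. For 49 members (62.0%, against 25.3% of all genes) both H and I lay below both J and K. For 4 (5.06%, against 24.4%) they lay above: Rpl15, Rpl23a, Rpl39 and Rps6. The labels give no date or batch for these libraries.

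The sign of the members' shift changed with the choice of controls. Against H and I instead of J and K, the glucose libraries had a member median of 0.21 with 64 members above 0. Against J and K instead of H and I, the glucose and lipid libraries had -0.19 with 9 above 0. With all 4 treated against all 4 PBS libraries, fitted with a term for the control set, 0 members were called (0.268% of all genes). There were 3 at an unadjusted p under 0.05 (3.80%, against 11.4% of all genes), 1 higher (6.18%) and 2 lower (5.22%). The median member was -0.01, equal to that of all genes to 2 decimals, with 36 above and 43 below 0. No member was higher in all 4 treated libraries than in all 4 PBS libraries (3.55% of all genes), and 1, Rps29, was lower (1.27%, against 2.84%).

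**Figure D3:**
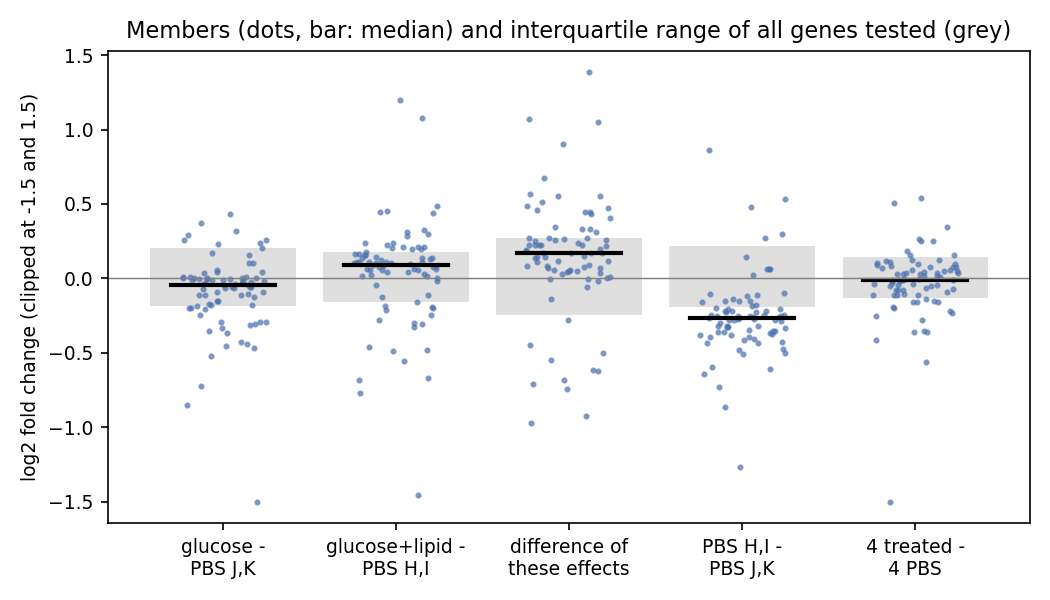
Dots are the log2 fold changes of the 79 genes in the 5 comparisons (clipped at -1.5 and 1.5), bars their medians and grey boxes the interquartile range of all genes tested. The members' median is -0.05 with glucose, 0.09 with glucose and lipid, 0.17 for the difference, -0.27 between the control pairs and -0.01 for all treated against all PBS libraries.

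Among the large subunit genes, Rpl39 and Rpl15 did not follow the common pattern. Rpl39 stood at 1158 and 819.6 FPKM with glucose, at 591 and 674 with glucose and lipid, at 921 and 937 in PBS H and I, and at 759.8 and 747 in PBS J and K. Both glucose libraries lay above J and K and both glucose and lipid libraries lay below all other libraries. The log2 changes were 0.37 ± 0.16 (SE, adjusted p = 0.333) with glucose and -0.56 ± 0.16 (adjusted p = 0.272) with glucose and lipid, and their difference was -0.93 ± 0.22 (adjusted p = 0.295), by limma. Without glucose and lipid replicate 1, the difference was -0.83.

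Rpl15, whose loss is a cause of Diamond-Blackfan anaemia, was at 64.9 and 47.2 FPKM with glucose, 35.9 and 45.9 with glucose and lipid, 72.8 and 59.0 in PBS H and I, and 49.9 and 40.6 in PBS J and K. As with Rpl39, glucose and lipid lay below H and I, here without lying below J and K. The change against H and I was -0.68 ± 0.20 (limma adjusted p = 0.291), and -0.51 without replicate 1. Rpl15 carries the longest start tract printed above and had all of its coding runs in other annotated genes; 23 pseudogenes held 1 or more runs of its transcript.

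Rpl38, which is needed for the translation of Hox messengers in the embryo, was at 83.6 and 99.5 FPKM with glucose, 86.3 and 89.8 with glucose and lipid, 74.7 and 74.6 in PBS H and I, and 111 and 139 in PBS J and K. It had the smallest p of all members between the control pairs, with H and I lower by 0.73 ± 0.14 on the log2 scale (limma adjusted p = 0.10). Treated libraries lay between both control pairs. Against their own controls its change was -0.44 ± 0.14 with glucose (adjusted p = 0.238) and 0.24 ± 0.14 with glucose and lipid (adjusted p = 0.541; 0.26 without replicate 1).

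Rpl35 was at 29.4 and 17.3 FPKM with glucose, 22.2 and 103 with glucose and lipid, 18.01 and 23.0 in PBS H and I, and 27.2 and 24.5 in PBS J and K. Its log2 change of 1.20 ± 0.60 with glucose and lipid (limma adjusted p = 0.477) rested on replicate 2: it was 0.12 without that library and 2.28 without replicate 1 (adjusted p = 0.0853). The stalk proteins Rplp0, Rplp1 and Rplp2 recruit the elongation factors. Rplp0 and Rplp1 followed the common pattern (Pearson 0.96 and 0.864 with the median of the members), and Rplp2 did so less (0.59). Rplp0 stood at 581 and 551 FPKM with glucose, 487 and 562 with glucose and lipid, 476 and 492 in PBS H and I, and 579 and 596 in PBS J and K. Rplp1 had 701 FPKM in PBS H as its lowest and 969.8 in glucose replicate 1 as its highest value, and Rplp2 ranged from 127 to 173 between the same libraries.

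Rpl5 and Rpl11 bind 5S rRNA and, when free, the p53 ligase Mdm2. Rpl5 was listed at 3.30 and 4.62 FPKM with glucose, 4.31 and 4.12 with glucose and lipid, 5.59 and 4.37 in PBS H and I, and 7.47 and 4.87 in PBS J and K. The change with glucose was -0.52 ± 0.25 (limma adjusted p = 0.379). Both Rpl5 and Rpl11 had 100% of their coding runs in other annotated genes, and the low level of Rpl11 kept it out of the tests. Rpl10, which joins the large subunit late in its assembly, ranged from 2.66 to 6.06 FPKM, and Rpl17 was at 2.73 and 2.25 with glucose and lipid and at 4.25 to 5.53 in the other 6 libraries. The change of Rpl17 with glucose and lipid was -0.67 ± 0.19 (adjusted p = 0.284), and -0.765 without replicate 1. Rpl13a, a translation regulator in macrophages when released from the ribosome, stayed between 98.2 and 117 FPKM.

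Among the small subunit genes, Rps6, the target of the S6 kinases downstream of mTORC1, resembled Rpl15. It was at 45.9 and 29.6 FPKM with glucose, 28.3 and 32.9 with glucose and lipid, 45.9 and 40.5 in PBS H and I, and 36.0 and 26.1 in PBS J and K. Glucose and lipid lay below H and I, with a change of -0.48 ± 0.23 (limma adjusted p = 0.454; -0.38 without replicate 1), and the glucose libraries overlapped J and K.

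Rps29, another Diamond-Blackfan anaemia gene, was at 6.67 and 4.49 FPKM with glucose, 9.34 and 8.77 with glucose and lipid, 13.2 and 9.47 in PBS H and I, and 9.92 and 11.5 in PBS J and K. All 4 treated libraries lay below all 4 PBS libraries, by a narrow margin in the glucose and lipid group. The log2 change was -0.85 ± 0.22 with glucose (adjusted p = 0.223) and -0.56 ± 0.18 over all treated libraries (adjusted p = 0.347), both by limma. Over all treated libraries it was -0.64 without glucose and lipid replicate 1. Rps29 had 100% of its coding runs in other annotated genes.

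Rps21 had the smallest p of the members with glucose. It was at 130.0 and 132 FPKM with glucose, 144 and 151 with glucose and lipid, 132 and 137 in PBS H and I, and 181 and 173 in PBS J and K. The glucose libraries lay below J and K by 0.43 ± 0.09 on the log2 scale (limma adjusted p = 0.160), and their values were close to those of PBS H and I. Rps10 was at 6.99 and 13.1 FPKM with glucose, 8.05 and 8.45 with glucose and lipid, 1.94 and 5.51 in PBS H and I, and 8.25 and 11.1 in PBS J and K. Its change with glucose and lipid was 1.08 ± 0.40 (adjusted p = 0.361; 1.11 without replicate 1), against the lowest pair of libraries. Rps23 was listed at 4.90 to 14.3 FPKM, Rps13 at 2.65 to 7.47, Rps16 at 3.14 to 12.2 and Rps28 at 2.56 to 19.1, with limma adjusted p-values of 0.468 or more in both treatment comparisons.

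Genes tied to anaemia or checkpoint responses at higher level followed the common pattern. Rps19, the first Diamond-Blackfan anaemia gene found, had its lowest value in PBS H (269.7 FPKM) and its highest in PBS K (365). Rps14, the gene behind the anaemia of the 5q- syndrome, had 798 FPKM in PBS H and 1176 in PBS K as its extremes. Rps3 had its extremes of 626 and 807 FPKM in the same pair of control libraries. Rps20 ranged from 454 FPKM in glucose and lipid replicate 1 to 658 in PBS K, and Rpsa, also known as the laminin receptor, from 44.7 to 61.9 between the same libraries.

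**Figure D4:**
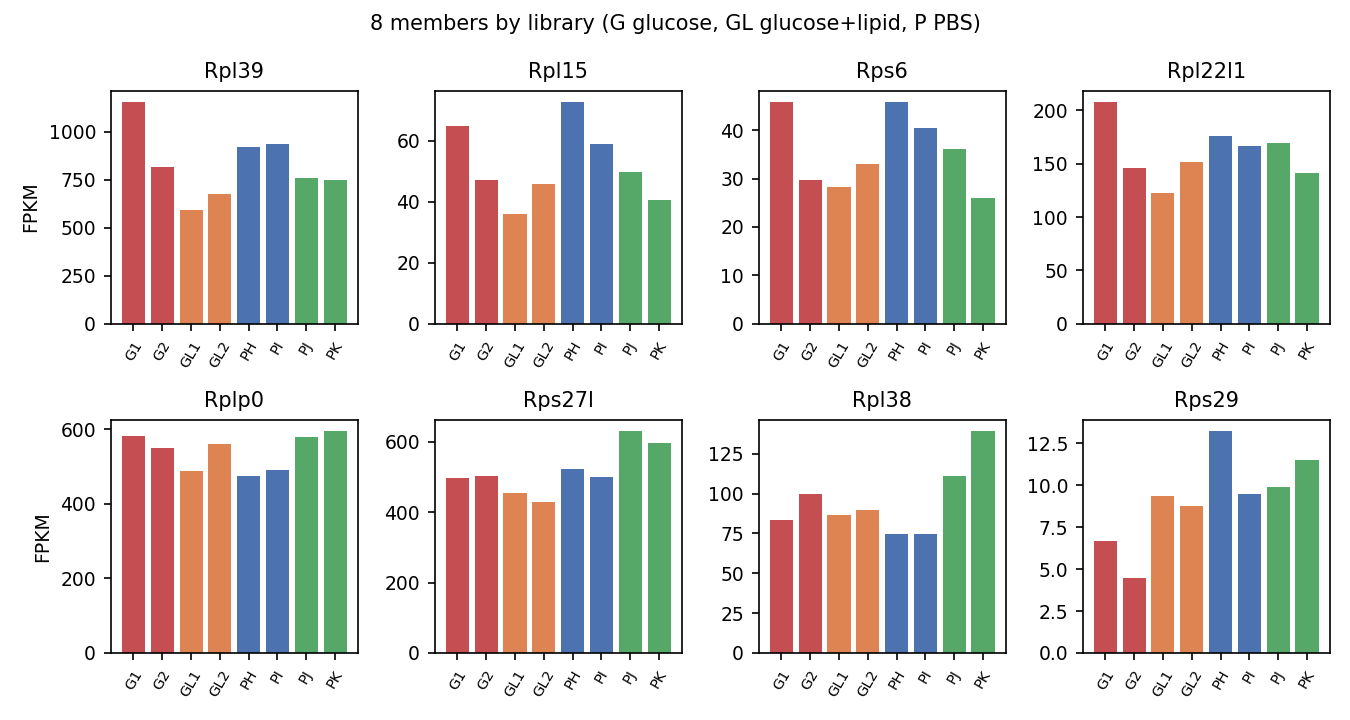
FPKM of 8 genes in each library (bars from 0; G glucose, GL glucose and lipid, P PBS with its letter; colours mark the 4 groups, with 2 libraries each). Rpl39, Rpl15 and Rps6 are higher in PBS H and I than in J and K, Rplp0, Rps27l and Rpl38 are lower, and Rps29 is lower in each treated library than in each PBS library.

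Paralogs that passed the filter beside their usual form included Rps27l, Rpl22l1 and Rpl7l1, whose ratios were tested. Rps27l and Rps27 differ little as proteins, and their coding sequences of 252 bases each differ at 60 positions (76.2% identical, with a longest common run of 11 bases), so fragments of 50 bases can tell them apart. The first 90 bases are shown because the less known copy was listed at the higher level, and capitals mark the 24 positions that differ.
Rps27: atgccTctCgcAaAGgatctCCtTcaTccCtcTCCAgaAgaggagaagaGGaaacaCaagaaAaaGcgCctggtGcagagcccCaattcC
Rps27l: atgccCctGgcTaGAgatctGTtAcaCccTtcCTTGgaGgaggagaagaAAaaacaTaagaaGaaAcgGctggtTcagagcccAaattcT

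Rps27l, which p53 induces, was at 496 and 504 FPKM with glucose, 455 and 429 with glucose and lipid, 523 and 500.1 in PBS H and I, and 631 and 596 in PBS J and K. Rps27 was listed at 10.8 to 17.97 FPKM, and it shared 100% of its coding runs with other annotated genes, against 48.3% for Rps27l. Fragments with several matches make the listed level of Rps27, and so the ratio, uncertain, and their part was not tested. The ratio of Rps27l to Rps27 ranged from 22.6 to 50.6 and was 0.44 lower on the log2 scale in treated than in PBS libraries. That difference was within the spread of the libraries (exact permutation p = 0.114, two-sided, n = 4 and 4; 0.342 after adjustment over 3 ratios, where 0.0286 is the smallest p possible). The change of Rps27l itself over all treated libraries was -0.25 ± 0.07, with the lowest adjusted p of the members in that comparison (limma, 0.281), and its values overlapped those of the PBS libraries.

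Rpl22l1, which can replace Rpl22 in the large subunit, was at 208 and 146 FPKM with glucose, 122 and 152 with glucose and lipid, 176 and 167 in PBS H and I, and 169.6 and 141 in PBS J and K. It exceeded Rpl22 in every library, by 1.28 to 2.11 times (exact permutation p for treated against PBS = 0.657, two-sided, n = 4 and 4). Rpl7l1 was at 0.379 to 0.568 of the level of Rpl7 (exact permutation p = 0.343, n = 4 and 4). Rpl22l1 shared 84.2% of its coding runs with other annotated genes and Rpl22 31.0%, and Rpl7 shared 77.5% against 21.9% for Rpl7l1. Fragments with several matches make both ratios uncertain too, and their part was not tested. Rpl39l, Rpl3l and Rpl10l, known from testis or muscle, had at most 0.930 FPKM.

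How alike the genes were depended on their level. Over the 8 libraries the median Pearson correlation between pairs of members was 0.70 for the 48 genes at 50 FPKM or more and 0.41 for all 79. Of the 48, 31 correlated above 0.8 with the median of the members and 1 correlated below 0; of the 31 genes under 50 FPKM, 2 and 5 did. These are descriptions over 8 libraries that share the same normalization. The genes below 0 were Rpl23a (-0.68), Rps6 (-0.38), Rps29 (-0.29), Rpl15 (-0.28), Rpl28 (-0.25) and Rpl5 (-0.01). Rpl39 (0.06) and Rpl22l1 (0.09) were near 0. Among 9071 other genes, those most like the member median were Ndufa7 (Pearson 0.976), Tmem222 (0.969), Tm2d3 (0.968), Avpi1 (0.962) and Acot1 (0.961). Ndufa7, a subunit of mitochondrial complex I, had 430.0 FPKM in PBS H, 442 in glucose and lipid replicate 1 and 558 in PBS K, the same extremes as the members.

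In each of 5 other lists of the ribosome-making machinery, PBS J had the highest list median of the 8 libraries, where PBS K had it for the members. No gene of the lists was called in any comparison (0.0168% to 0.268% of all genes were). Of 73 tested ribosome biogenesis factors, 71 were lower in PBS H and I than in J and K (list median -0.36, against 0.00 for all genes), and 70 were lower with glucose than in J and K (median -0.34). At an unadjusted limma p under 0.05, 42 of the 73 were lower with glucose (8.44% of all genes) and 0 higher (6.41%). Between the control pairs 41 were lower (9.72%) and 0 higher (7.53%). With glucose and lipid 2 were lower (5.93%) and 2 higher (5.87%). Over all treated libraries 16 were lower (5.22%) and 0 higher (6.18%). The glucose and lipid libraries gave a median of -0.02 for this list against H and I, and -0.09 without replicate 1. Over all treated against all PBS libraries, 67 of the 73 lay below 0 (median -0.19, against -0.01 for all genes), with Ddx10, an RNA helicase of the small subunit processome, at -0.35 ± 0.08 (limma adjusted p = 0.218). Without glucose and lipid replicate 1, 69 of the 73 lay below 0 (median -0.23). Nop14, of the same complex, was at 31.9 and 32.9 FPKM with glucose, 29.9 and 27.8 with glucose and lipid, 32.9 and 30.2 in PBS H and I, and 44.8 and 44.4 in PBS J and K. Here J and K stood alone above the other 6 libraries.

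The other 4 lists are given by their medians. For 14 chaperones and importers of ribosomal proteins, these were -0.25 with glucose and -0.30 between the control pairs, and -0.01 with glucose and lipid (-0.09 without replicate 1). For 19 genes of RNA polymerase I and its factors they were -0.22 with glucose and -0.19 between the control pairs, and -0.04 with glucose and lipid (0.01 without replicate 1). For 23 genes of mTORC1 and TOP mRNA control they were -0.13, -0.07 and -0.08 (-0.10 without replicate 1) in the same order. For 23 TOP messengers of translation factors and other non-ribosomal proteins they were -0.10, -0.155 and -0.03 (0.03 without replicate 1). Myc, which drives ribosome production, was at 260.1 and 274 FPKM with glucose, 228 and 244 with glucose and lipid, 274 and 256 in PBS H and I, and 335 and 308 in PBS J and K, a change of -0.22 ± 0.07 over all treated libraries (limma adjusted p = 0.347; -0.21 without glucose and lipid replicate 1). Eif4b, a TOP messenger for an initiation factor, had a change of -0.25 ± 0.09 (adjusted p = 0.347).

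**Figure D5:**
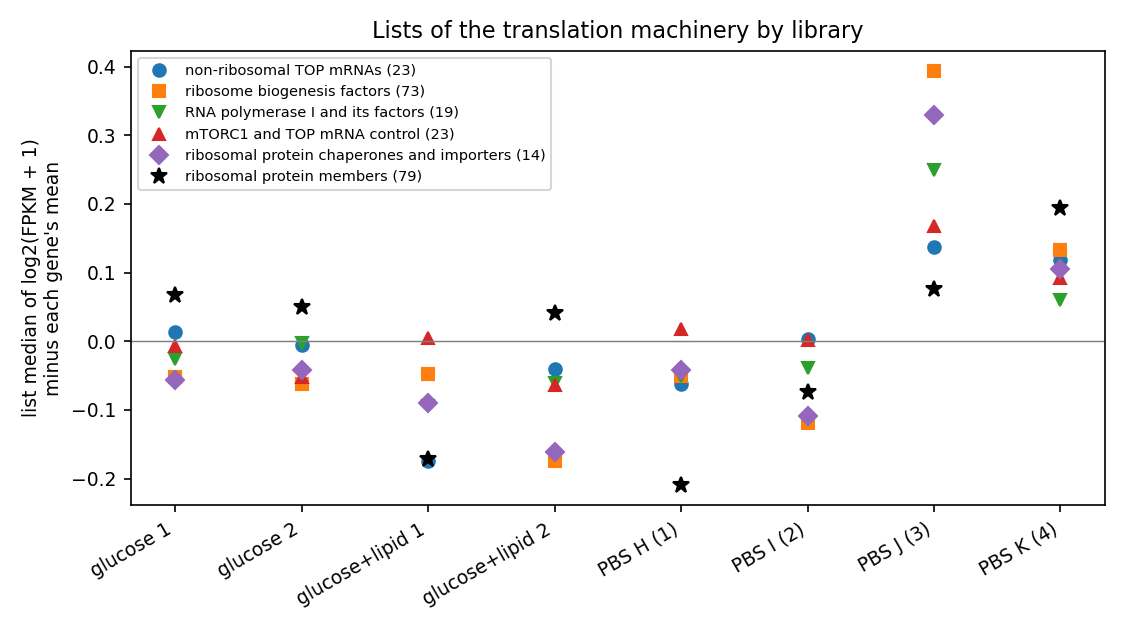
Symbols give the median of each list in each library, on the log2(FPKM + 1) scale after centring each gene on its mean over 8 libraries; numbers of genes are in the legend. In PBS J the biogenesis factors lie highest and the ribosomal protein genes (stars) lowest, while in PBS K the ribosomal protein genes lie highest of the 6 lists plotted, at 0.19.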

How the data were processed

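RNA of sorted LSK cells was made into cDNA with SMART-Seq HT and into libraries with Nextera XT, per the labels' protocols. The authors deposited 1 table of FPKM per library, not log transformed. Per the submitters' processing notes, Cuffnorm 2.2.1, Bowtie2 2.2.3, TopHat2 2.0.13 and SAMtools 1.0 were used with the build mm10. For the annotation, the library scaling and the handling of fragments with several matches, nothing is stated there. The depth in fragments is unknown, which leaves no counting interval for a value.

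Groups came from the labels, and the assignment of control pairs to treatments is an inference from the letters in the names. Genes with at least 1 FPKM in 2 or more of the 8 libraries were tested on log2(FPKM + 1), a scale that understates the change of low genes. The fit was limma 3.58.1 (R 4.3.3) with an intensity trend over all 11931 genes and 4 groups, which gave 4 residual and 3.73 prior degrees of freedom, and p-values were adjusted by Benjamini and Hochberg. All 4 treated against all 4 PBS libraries was a second fit with the control set as a term. Paralog ratios had exact permutation tests over libraries. Scripts were tested on simulated data. Summed shares leave out 775 short RNA genes.

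Shared sequence came from exact 50-base matches between GENCODE vM21 transcripts, so copies outside annotated transcripts were not counted. Promoters came from RefSeq (GRCm38.p6). Tables were handled in Python 3.11.15 with pandas 2.3.3, numpy 2.4.6 and scipy 1.17.1, and plots in matplotlib 3.10.9.

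Members named with values were any called in a comparison (up to 10 a direction), the 4 highest and 4 lowest changes among those with a mean of 3 FPKM or more, the 5 highest and 5 lowest levels, paralogs, and genes of known role. Up to 4 genes of each other list were eligible, those with the smallest p over all treated libraries. Rps21 and Rpl26 were chosen after their values were seen. The members, lists and rules were chosen with earlier results of these data known. The alternatives were another pseudocount (0.1), no filter, other scalings, other controls, each library left out, the letter as a block and, added after seeing the data, members of 50 FPKM or more only and the gene lists without glucose and lipid replicate 1. A few genes that the rule would name are not reported here.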

Additional observations from a re-analysis of the deposited data

Results flagged for a closer look

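Among the 79 genes, 1 had a PBS library far from the other 3 PBS libraries. The Rpl28 values were 1.48 FPKM for PBS H, 0.998 for I, 1.57 for J and 1.56 for K, and the gap of PBS I to its nearest neighbour was 0.84 of the whole range, above Dixon's 95% critical value for 4 samples. Chance passes this limit in about 1 in 20 groups, which is more often than the 1 of 79 seen here.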

How the results depend on the processing

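No member was called by limma in any of the 5 comparisons under any alternative, and all 2747 alternative values for single genes stayed uncalled. The member median, with a replicate SD of 0.0985, was less stable. With glucose it was -0.05 as reported, 0.207 when set against PBS H and I, and 0.0854 against all 4 PBS libraries. With glucose and lipid it was 0.09 as reported, -0.193 against PBS J and K and -0.0669 against all 4. Scaling to equal sums without short RNA genes gave -0.0603 with glucose and lipid, -0.043 for the difference and -0.159 between the control pairs. That scaling moved the median of all genes to -0.124 with glucose and lipid and to -0.163 for the difference. Members lay above it in both. With glucose the member median was 0.0113 and that of all genes 0.0578. Between the control pairs the median of all genes was 0.0956, so members lay below it in both of these. The same scaling left 44 members above 0 with glucose and 24 with glucose and lipid. Leaving out 1 library gave -0.112 to 0.00109 with glucose, -0.0314 to 0.17 with glucose and lipid, 0.0544 to 0.297 for the difference, -0.329 to -0.213 between the control pairs and -0.0577 to 0.036 for all treated libraries. Where this left a single library in a group, it was assumed to vary like the others.

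The count of all genes called was less stable: without glucose and lipid replicate 2 it was 271 instead of 9 with glucose and lipid and 141 instead of 2 for the difference. It ranged over all alternatives from 8 to 32 with glucose (12 as reported), from 2 to 15 between the control pairs (6 as reported) and from 8 to 33 for all treated libraries (32 as reported). Why was not tested.

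The letters H and I did not pair the libraries, whose deviations from the group means correlated at 0.066 over all genes tested and at -0.0993 over the members. With the letter as a replicate block the member median was 0.0886 with glucose and lipid and 0.168 for the difference, and 0 members were called. Unknown depth and multiple matching limit the genes under 10 FPKM most.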

Other observations

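Several genes of the same family lay outside the symbol rule. Gnb2l1, known as Rack1, a scaffold on the head of the small subunit, was at 989 and 995 FPKM with glucose, 850.2 and 938 with glucose and lipid, 867 and 865 in PBS H and I, and 1131 and 1127 in PBS J and K. Both J and K lay above the other 6 libraries. Rpl36al, a close copy of Rpl36a, was at 212 to 359 FPKM, while Rpl36a itself was listed at 4.09 to 11.8. Fau, whose product is a ubiquitin-like fusion of a small subunit protein, was at 4.73 to 10.3 FPKM.

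Rplp2-ps1, annotated as a pseudogene, was listed at 286 to 388 FPKM over the 8 libraries, above Rplp2 itself in each of them (127 to 173). It had 364 and 354 FPKM with glucose, 307 and 367 with glucose and lipid, 286 and 292 in PBS H and I, and 359 and 388 in PBS J and K. Rps4y2 was listed at 17.4 to 30.4 FPKM, and the pseudogene Rps15a-ps6 at 8.08 to 14.5, near Rps15a at 12.7 to 19.6.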
